A study of Citrus sinensis with 12 samples.

Results

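Copper excess at the control pH was examined in roots of sweet orange (Citrus sinensis) seedlings by comparing 2 groups of RNA sequencing libraries. The treated group was kept at pH 4.8 with 300 µM CuCl2 and the control group at pH 4.8 with 0.5 µM CuCl2, both for 17 weeks. These are 6 of the 12 libraries of the series, 3 per group, chosen by their treatment labels. The other 6 libraries come from seedlings at pH 3 with 0.5 or 300 µM CuCl2 and serve here as a second copper comparison that shares no library with the first. Each library was made from a pool of roots of 4 seedlings grown in separate pots, so the spread among libraries is that among pools. The titles of the pH 4.8 control samples give 5 µM copper where their treatment label gives 0.5 µM, and 0.5 µM is used here. The series is titled for the relief of copper toxicity by high pH, and the comparison asks what copper excess changes when the pH is at its control level.

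Copper is a micronutrient of plants. It is a cofactor of electron carriers and of oxidases, and roots take it up through high-affinity copper transporters. In excess it displaces other metals and drives the formation of reactive oxygen species, and roots are known to bind it with metallothioneins and phytochelatins, to move it into vacuoles and to change their uptake of other metals. Which of the genes below belong to these processes cannot be said, because the deposited tables give identifiers and positions without names or functions. None of the identifiers, 0 of 20122, was found in the RefSeq gene table of the species. The labelled tissue could not be checked against root markers for the same reason. Genes are therefore described by identifier, position, level and size of change, and the genome build behind the positions is not given in the sources used here. In bulk tissue, fewer cells of a type and less RNA per cell cannot be told apart.

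Expression is given as FPKM, the fragments of a gene divided by its length and by the depth of the library. Of the 20122 listed genes, 18723 had a mean of at least 1 FPKM in one of the groups and were tested. Differences are given on the log2(FPKM + 1) scale, 300 µM minus 0.5 µM, which understates changes near 1 FPKM. Changes were tested with limma on the 6 libraries, and a gene counts as called, or as changed, where the two-sided p adjusted after Benjamini and Hochberg was under 0.05. The p-values set each difference against the spread among these pools, which limma estimates in part from genes of like level.

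The groups were well apart relative to their spread. Between 17710000 and 22780000 fragments were recovered per library from the steps between low FPKM values, so that a 1 kb gene with 3 fragments would be listed at 0.132 to 0.169 FPKM. For a gene of 1 kb, values under this floor are not told from 0, by counting error alone. The floor is higher for shorter genes and lower for longer ones. Libraries of the same group correlated across genes at r = 0.989 to 0.992, and libraries of different groups at 0.923 to 0.938 (genes are not independent replicates). The root mean square distance between libraries was 0.241 to 0.287 log2 units within the groups and 0.7 to 0.781 between them. The median SD of a gene was 0.113 in the control and 0.125 under copper. Summed FPKM over the listed genes was 582394, 597341 and 590404 in the control libraries and lower in the copper libraries, at 549550, 560405 and 557941. Genes listed at 0 numbered 45 to 83 in the control libraries and 88 to 118 under copper.

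Copper changed 10500 of 18723 genes (56.1%). Of these, 5171 rose (27.6%) and 5329 fell (28.5%), a balance that leaned the other way under median scaling, where 51.0% of calls were rises, and without control replicate 1, where 50.5% were. Most changes were small. The median difference was 0.63 among the genes that rose and -0.57 among those that fell. Past 2-fold lay 1225 called rises (6.54%) and 921 called falls (4.92%), and past 4-fold 191 rises (1.02%) and 171 falls (0.913%). When the test itself asked for a change beyond 2-fold (limma's treat), 448 genes passed as higher (2.39%) and 339 as lower (1.81%).

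The 3 copper libraries all lay above, or all below, the 3 control libraries in 11863 genes (63.4%), with 5809 of them higher (31.0%) and 6054 lower (32.3%). The groups of 3 were apart in 10259 of the 10500 called genes and overlapped in 241. Among the larger changes, 1220 of 1225 rises and 915 of 921 falls showed no overlap. At the other end, 8319 genes (44.4%) were steady, which means that the 95% interval of their difference lay within 1.5-fold of no change. They included 1768 called genes, whose changes were thus small and well measured. Of the 8223 genes that were not called, 6551 were steady and 1672 had intervals too wide to bound them in this way. The interval reached a median of 0.33 to either side for genes with a mean under 5 FPKM, 0.22 from 5 to 100 FPKM and 0.19 from 100 FPKM.

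**Figure D1:**
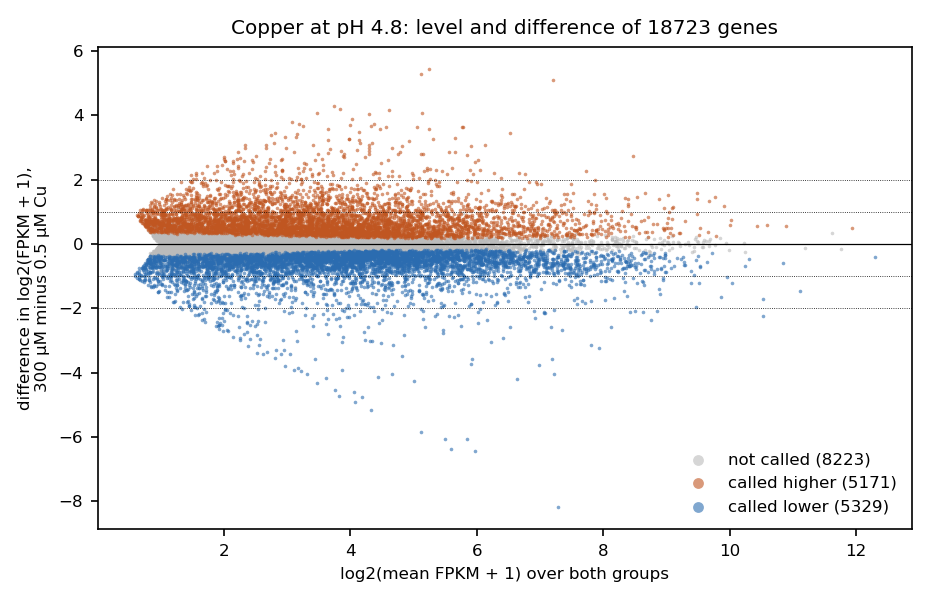
Difference of each tested gene between 300 and 0.5 µM copper at pH 4.8 (y axis, log2(FPKM + 1)) against its level (x axis, log2 of the mean FPKM plus 1 over both groups), with 1 point per gene, coloured by its limma call. Dotted lines mark 2-fold and 4-fold; 5171 genes lie among the called rises and 5329 among the called falls, and the deepest falls reach further from 0 (-8.18, at a gene listed at 0 under copper) than the highest rise (5.44).

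The strongest rises among abundant genes, those that averaged 100 FPKM or more across the 6 libraries, were at Cs7g01050 and Cs5g04630. Cs7g01050, on chromosome 7 from 36794 to 37597, had 6.12, 6.92 and 9.23 FPKM in the control libraries and 265.91, 291.96 and 304.56 FPKM under copper, a 38.7-fold ratio of the means and a log2 difference of 5.11 (SE 0.12, limma adjusted p = 4.3e-08). Cs5g04630, on chromosome 5 from 2713899 to 2714726, had 86.72, 94.04 and 93.97 FPKM in the controls and 598.31, 539.87 and 712.58 FPKM under copper, which is 2.73 higher on the log2 scale (SE 0.10, limma adjusted p = 1.8e-07). Both genes were thus high in each copper library, with a wide gap to the controls. At pH 3 Cs7g01050 started higher, at 55.4 ± 14.2 FPKM with 0.5 µM copper (SD, n = 3), and reached 223 ± 57.2 FPKM with 300 µM.

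The strongest falls among abundant genes were deeper. Cs7g03770, on chromosome 7 from 1743669 to 1745148, had 263.10, 296.06 and 277.11 FPKM in the controls and 13.11, 15.16 and 19.87 FPKM under copper, a 17.4-fold ratio of the means and a log2 difference of -4.05 (SE 0.13, limma adjusted p = 9.5e-08). The second gene, orange1.1t05521, is described with the genes that were lost altogether. Control values of Cs7g03770 were close to each other and none came near a copper value.

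In the range from 5 to 100 FPKM, the largest differences were at genes close to 0 in one of the groups. Cs8g15220 (chromosome 8, 18356028 to 18361843) had 0.57, 0.62 and 0.92 FPKM in the controls and 70.09, 76.58 and 71.90 FPKM under copper, and Cs5g06570 (chromosome 5, 4064768 to 4066699) had 1.09, 0.45 and 0.78 FPKM against 64.06, 73.81 and 62.16. These are the largest rises of all tested genes, at 5.44 (SE 0.10) and 5.27 (SE 0.14), with limma adjusted p = 1e-08 and 6.3e-08. On the falling side, Cs2g06910 (chromosome 2, 4045764 to 4046409) went from 90.22, 100.34 and 177.18 FPKM to 0.00, 0.10 and 1.32, and Cs7g11650 (chromosome 7, 7639593 to 7640296) from 72.75, 79.76 and 131.65 FPKM to 0.00, 0.00 and 0.39. Their differences were -6.43 (SE 0.33, limma adjusted p = 8.2e-07) and -6.37 (SE 0.22, limma adjusted p = 1.4e-07). With a pseudocount of 0.1 they became -8.59 and -9.07, since the copper values are near 0. In both, control replicate 3 was the highest of the controls.

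**Figure D2:**
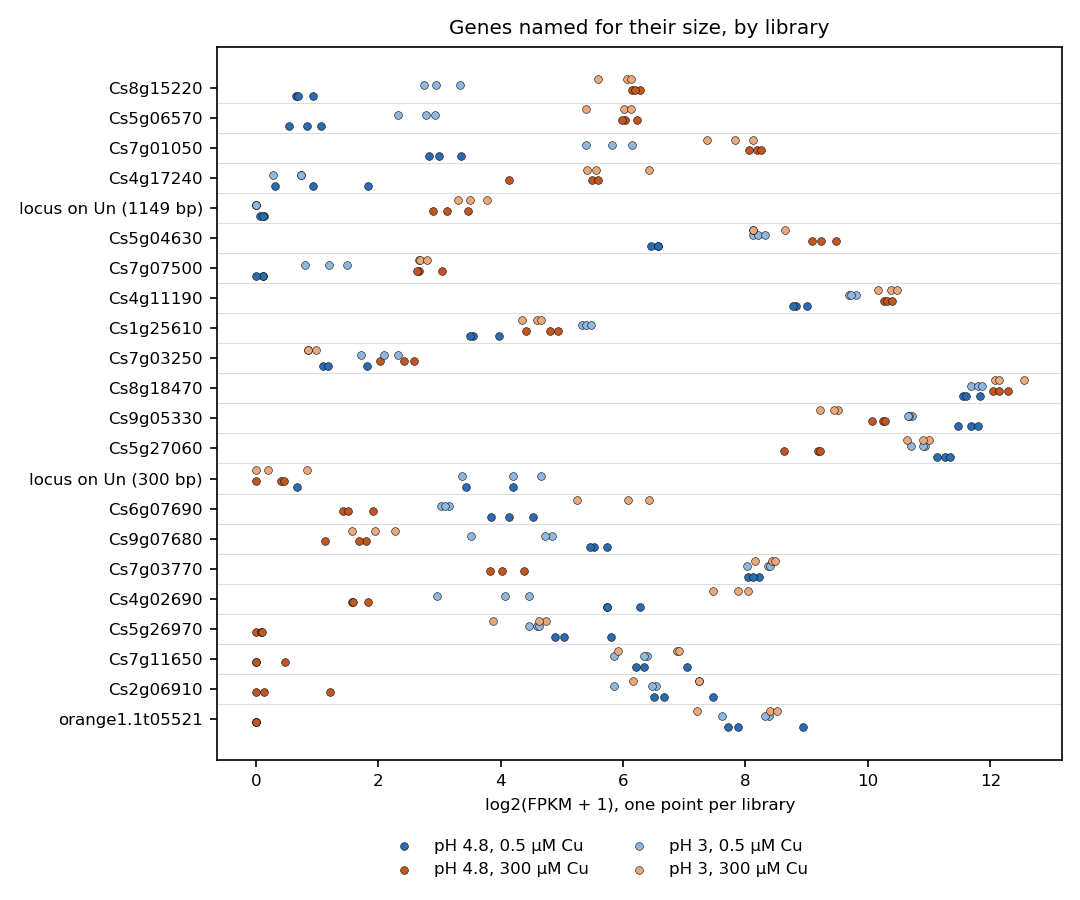
Levels of the genes named for the size of their change, or for their behaviour at both pH values, as log2(FPKM + 1) on the x axis, with 1 point per library and 4 groups of 3 libraries per gene. The pH 4.8 copper points of the lowest 4 rows are the leftmost, apart from all other groups. For the 2 genes at the top, the pH 3 control points lie between the pH 4.8 control points and the copper points.

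In amount, the largest changes were at highly expressed genes. The largest gains of mean FPKM were at Cs8g18470 (chromosome 8, 21071907 to 21073405), from 3247 ± 342 to 4585 ± 382 FPKM (mean ± SD of 3 libraries, here and below), and at Cs4g11190 (chromosome 4, 7862383 to 7864920), from 468 ± 41.4 to 1278 ± 56.9 FPKM. The former was a modest rise of 0.50 (SE 0.14, limma adjusted p = 0.013) in what became the most abundant listed gene under copper, and the latter a rise of 1.45 (SE 0.09, limma adjusted p = 3.1e-06). The largest losses were at Cs9g05330 (chromosome 9, 3129179 to 3130180), from 3227 ± 364 to 1177 ± 90.6 FPKM, and at Cs5g27060 (chromosome 5, 29761632 to 29762039), from 2429 ± 178 to 524 ± 111 FPKM. The log2 differences were -1.45 (SE 0.12, limma adjusted p = 1.5e-05) and -2.23 (SE 0.16, limma adjusted p = 4.7e-06). At pH 3 Cs9g05330 fell too (-1.28, limma adjusted p = 0.00013). Cs5g27060 stood there at 1843 ± 153 FPKM with 0.5 µM copper and 1853 ± 237 with 300 µM (95% interval -0.31 to 0.32). Its interaction of copper and pH was -2.24 (limma adjusted p = 1.9e-05).

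The most abundant gene of the control, Cs6g11770 (chromosome 6, 12935838 to 12936074), spans 237 bp. It stood at 5641.67, 5885.63 and 5666.90 FPKM in the controls and 4323.87, 4630.39 and 4075.87 under copper, a fall of -0.40 (SE 0.13, limma adjusted p = 0.027). This call was lost under quantile normalization (limma adjusted p = 0.15), without the filter on low values (0.071) and when any of the 3 control libraries or copper replicate 1 was left out (0.055 to 0.092). Next in the control came Cs5g32800 (chromosome 5, 34000073 to 34001476), at 3659 ± 129.7 FPKM against 3256 ± 44.7 under copper, which was not called (-0.17, 95% interval -0.43 to 0.09). Of the 100 most abundant genes of the control, 57 fell and 11 rose, where 28.5% of tested genes fell and 27.6% rose. The lean turned with the group used to pick the genes: of the 100 most abundant under copper, 18 fell and 44 rose, and 60 genes were on both lists.

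Summed over genes, the 5329 that fell held 48.4% to 49.8% of the summed FPKM in the control libraries and 30.6% to 32.6% under copper. The 5171 that rose held 19.5% to 20.6% in the controls and 34.8% to 36.5% under copper. These sets were chosen by the same difference, so the shares describe how much of the measured pool they make up and are no test. The called falls summed to -112676 FPKM, and the called rises to 79550 FPKM. Genes that rose or fell by at least 2-fold held less: 3.11% ± 0.186 (SD, n = 3) of the summed FPKM of the controls and 9.35% ± 0.463 under copper for the rises, and 10.6% ± 0.333 and 3.79% ± 0.0985 for the falls.

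Only a few genes went between absence and clear expression. By the rule used, at most 0.1 FPKM in all 3 libraries of one group and at least 5 FPKM in all 3 of the other, 2 genes appeared under copper and 10 were lost. The 2 that appeared were low. An assembled locus, a position without an annotated identifier, on unplaced sequence from 8609164 to 8610312 had 0.05, 0.10 and 0.08 FPKM in the controls and 10.03, 7.70 and 6.47 under copper (limma adjusted p = 7.9e-07). Cs7g07500 (chromosome 7, 4537897 to 4540761) had 0.09, 0.09 and 0.00 FPKM against 5.38, 5.22 and 7.26 (limma adjusted p = 1.1e-06). No fold change is given for either, since no control value exceeded 0.10 FPKM. The assembled locus was listed at 0 in the 3 pH 3 controls and had 10.25, 12.74 and 8.92 FPKM with copper there, and Cs7g07500 went from 1.28 ± 0.53 to 5.57 ± 0.312 FPKM at pH 3.

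The 10 lost genes reached higher levels. The most abundant, orange1.1t05521 (unplaced sequence, 87539307 to 87539482, 176 bp), had 235.43, 208.22 and 487.49 FPKM in the controls and was listed at 0 in all 3 copper libraries (limma adjusted p = 9.5e-08). Next came Cs5g26970 (chromosome 5, 29676897 to 29678082) with 28.46, 31.68 and 54.52 FPKM in the controls and 0.00, 0.06 and 0.07 under copper (limma adjusted p = 2.7e-07). In the other 8, control values ran from 5.87 to 49.80 FPKM, and no copper value of the set exceeded 0.10 FPKM. The genes span 176 to 3290 bp, and 9 of them are spread over 5 chromosomes, so they do not form a single block. Among them, Cs1g09940 (446 bp) and Cs1g09970 (445 bp) lie near each other on chromosome 1, and whether they share reads was not tested.

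In all 10 lost genes, control replicate 3 had the highest of the control values, at 1.23 to 2.24 times the mean of the other control libraries. Over all tested genes this replicate was the highest control in 33.6%, while among larger changes it was so in 57.9% of 4-fold falls, 56.0% of 4-fold rises, 38.1% of 2-fold falls and 49.4% of 2-fold rises, so the pattern was not particular to falls. At pH 3 the same genes were present: every library had at least 3.37 FPKM of each, with or without copper. In 9 of the 10, replicate 2 was the lowest of the copper-treated libraries at pH 3. Copper at pH 3 changed 2 of the 10, where it changed 30.3% of all genes tested there. The interaction of copper and pH was called for all 10, against 20.8% of all genes, but it contains the loss at pH 4.8 by which the 10 were chosen. The part that single pools play in this pattern was not tested.

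The direction of change went with the level of a gene. Among genes under 5 FPKM 25.5% rose and 20.9% fell, whereas among those of at least 100 FPKM 27.9% rose and 47.6% fell. The abundant class leaned to falls also after quantile normalization (35.4% higher, 40.3% lower) and after median scaling (28.9% higher, 46.3% lower). The lean of low genes towards rises did not hold under quantile normalization, which gave 23.1% higher and 23.3% lower. Called genes made up 46.4% of the lowest class and 75.5% of the highest. The highest class had narrower intervals. Its median absolute log2 difference was 0.48, against 0.37 under 5 FPKM, 0.33 from 5 to 20 and 0.36 from 20 to 100. The scale understates changes near 1 FPKM, so the value of the lowest class is not quite like the others.

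Direction also went with the genomic span of a gene, its length from start to end with introns included. With the tested genes divided into 4 span classes of like size, 35.9% of genes rose and 15.1% fell in the longest class, over 4789 bp. In the shortest class, up to 1830 bp, 25.2% rose and 34.5% fell. Falls of at least 2-fold were most frequent among short genes, at 10.9% in the shortest class, then 5.12%, 2.42% and 1.24%, and rises of that size declined less, from 8.97% to 4.98%. The median span was 1451 bp for genes that fell by at least 4-fold, 1970 bp for those that rose by at least 4-fold, 3113 bp for all tested genes and 3785 bp for steady genes.

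At each level of expression the longest class leaned more to rises than the shortest. From 5 to 20 FPKM, 38.5% of the longest class rose and 13.2% fell, against 25.6% and 37.2% of the shortest, and the other 3 levels had the same order of longest and shortest. The classes between were not always in order: from 100 FPKM the second shortest class leaned most to falls, with 21.1% higher and 60.4% lower. The trend was also present among identifiers placed on chromosomes taken alone, where 35.8% of the longest class rose and 15.4% fell. Scaling left it in place: in the longest class 35.0% rose and 15.8% fell after quantile normalization, while median scaling gave 37.4% and 14.4%.

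Each copper library showed the trend, and smaller differences of the same form lay between libraries of one group. Against the mean of the controls, the median difference of the longest class was 0.17, 0.12 and 0.09 in the 3 copper libraries, and that of the shortest class was -0.13, -0.09 and -0.10. Against the other libraries of its own group, the longest class moved by -0.06 to 0.06 and the shortest by -0.04 to 0.03. Copper replicate 1 and control replicate 1 were the libraries with the highest values for long genes in their groups. At pH 3, copper replicates 1 and 3 had medians of 0.14 and 0.16 for the longest class while replicate 2 had -0.06. From the shortest class to the longest, the percent called higher at pH 3 declined from 18.9% to 14.6%, unlike at pH 4.8. The percent called lower there declined from 17.4% to 6.36%. The median difference rose with span at pH 3 too, at -0.03, -0.03, 0.0 and 0.08. The medians at pH 4.8 were -0.12, -0.11, -0.04 and 0.13. The part that such differences between libraries play in the trend was not tested.

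**Figure D3:**
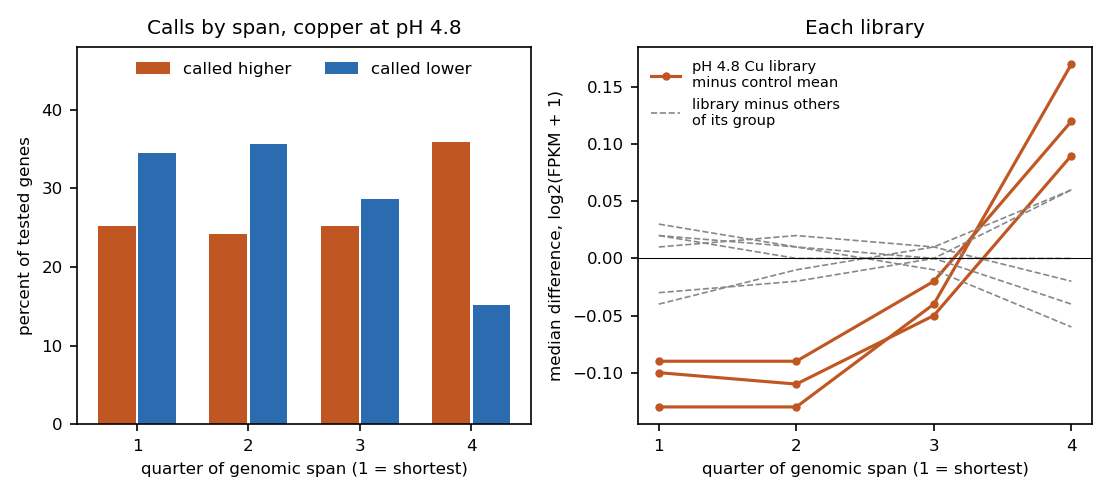
Left, the percent of tested genes called higher or lower under copper at pH 4.8 (y axis) in 4 classes of genomic span from shortest to longest (x axis). Right, the median difference in log2(FPKM + 1) per class for each of the 3 copper libraries against the control mean (solid) and for each library against the other libraries of its group (dashed); the solid lines end at 0.09 to 0.17 and the dashed ones at -0.06 to 0.06.

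No chromosome stood out. On the 9 chromosomes between 26.5% and 28.5% of tested genes rose and between 26.7% and 30.4% fell. Assembled loci were the least steady kind, with 24.4% within 1.5-fold against 46.3% of chromosome identifiers. By at least 2-fold, 7.50% of assembled loci rose and 7.74% fell, and 6.50% and 4.69% of chromosome identifiers.

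Genes with large changes sat beside each other more often than tested genes as a whole sat beside such genes, with no test made. Among the 1032 genes on chromosomes that rose by at least 2-fold, 258 (25.0%) had at least 1 listed neighbour that did so too, against 11.5% of all tested genes on chromosomes that had such a neighbour. Among the 775 that fell by at least 2-fold the number was 170 (21.9%), against 8.87%. Of 14902 adjacent pairs of tested genes, 146 rose together by at least 2-fold, 90 fell together and 78 went apart in opposite directions. Among the pairs that moved together, 1 overlapped in position. Near-identical neighbouring copies can share reads, so pairs of this kind are not independent measurements.

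Runs of at least 3 consecutive listed genes numbered 27 for rises and 8 for falls. The longest run of rises held 5 genes on the minus strand of chromosome 4 (1661868 to 1714848). Its largest members were Cs4g03330 (1708112 to 1714848), with 3.22, 2.65 and 3.06 FPKM in the controls and 28.52, 22.57 and 23.94 under copper (2.71, SE 0.11, limma adjusted p = 2.9e-07), and Cs4g03300 (1684128 to 1684988), with 2.71, 2.56 and 2.09 FPKM against 16.63, 17.25 and 14.78 (2.32, SE 0.11, limma adjusted p = 5.8e-07). The other members rose by 1.23 to 1.85. Of the 5 genes, only Cs4g03330 was called under copper at pH 3, where it rose by 1.09 (limma adjusted p = 0.0013).

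Among falls, 2 runs of 4 genes were the longest. The one with the larger mean change lies on the plus strand of chromosome 2 (29930520 to 29947225). Cs2g30600 (29930520 to 29930841) went from 4.05, 7.02 and 6.12 FPKM to 1.39, 0.25 and 1.12 (-1.84, SE 0.26, limma adjusted p = 0.00029), and Cs2g30630 (29946441 to 29947225) from 17.54, 17.89 and 18.86 FPKM to 5.84, 5.89 and 6.63 (-1.42, SE 0.09, limma adjusted p = 2.2e-06). Between them lay a far more abundant gene that fell from 564 ± 53.9 to 233 ± 8.84 FPKM, and one that fell from 11.4 ± 1.95 to 4.76 ± 0.481 FPKM. In this run 3 of the 4 genes were also called lower under copper at pH 3.

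**Figure D4:**
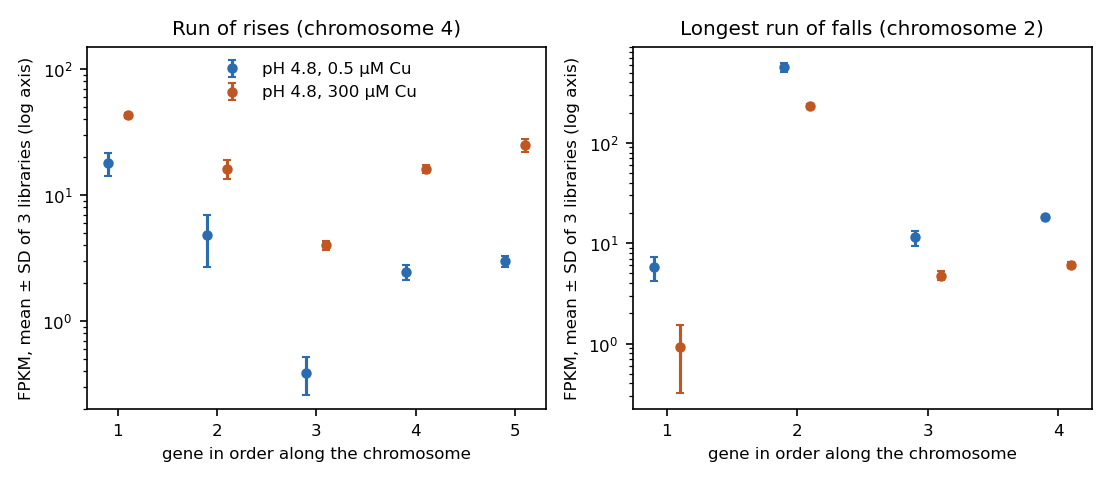
Mean FPKM (y axis, log scale) with the SD of 3 libraries for the genes of the longest run of rises of at least 2-fold and of the run of falls with the larger mean change of the 2 longest, in order along the chromosome (x axis). All 5 genes on the left are higher under 300 µM copper and all 4 on the right are lower, at levels that differ from gene to gene between 0.387 and 564 FPKM in the control.

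Copper at pH 3 was fitted separately on its own 6 libraries, so it shared neither libraries nor the estimate of spread with copper at pH 4.8. It changed 5644 of 18626 genes (30.3%), with 3264 higher (17.5%) and 2380 lower (12.8%). The count fell to 3744 without control replicate 1 and to 3607 without control replicate 2 at pH 3. It rose to 7376 without copper replicate 2 at pH 3 and to 6969 with all 12 libraries in the fit. The overlaps below rest on this count. Under copper at pH 3 the median SD of a gene was 0.179, against 0.113 in its control and 0.125 under copper at pH 4.8. What this wider spread adds to the lower count was not tested. Of the genes called higher at pH 4.8 and tested at both pH values, 42.3% also rose at pH 3 and 2.65% fell there, and of those called lower 32.2% also fell and 3.70% rose. Seen from pH 3, 70.6% of its rises were rises at pH 4.8 and 70.9% of its falls were falls there. Differences in opposite directions were called for 326 genes.

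Large rises and large falls at pH 4.8 differed in what the same genes did at pH 3. Of the 191 genes that rose by at least 4-fold at pH 4.8, 161 (84.3%) rose at pH 3 and 0 fell, and their median difference was 2.51 at pH 4.8 and 1.18 at pH 3. Of the 169 genes tested at both that fell by at least 4-fold, 65 (38.5%) fell at pH 3, 25 (14.8%) rose and 79 (46.7%) were not called, and their median difference was -2.54 at pH 4.8 and -0.25 at pH 3. These genes were chosen by their size at pH 4.8, so the values there are a description. When genes were chosen by their size at pH 3 instead, the order turned: of 122 genes at least 4-fold higher there 59.0% rose and 11.5% fell at pH 4.8, while of 25 genes at least 4-fold lower 88.0% fell at pH 4.8 and 0 rose.

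The interaction of copper and pH, fitted to all 12 libraries, is the copper effect at the control pH less that at the low pH. It was called for 3991 of 19204 genes (20.8%), with 1766 values above 0 (9.2%) and 2225 below (11.6%). Of the called rises at pH 4.8, 27.1% had an interaction above 0 and 2.87% one below. Of the called falls, 28.3% had one below 0 and 1.66% one above. The interaction contains the difference at pH 4.8 by which these genes were chosen, so this split is a description and no test. Where both pH values gave a call in the same direction and the interaction was called, the difference was larger at pH 4.8 in 674 of 905 genes. In 1034 genes copper acted at pH 4.8, the interaction was called and the 95% interval at pH 3 lay within 0.5 of 0. Of these, 431 rose and 603 fell at pH 4.8.

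The largest members of that set were in part genes already described. Cs5g04630 was at 297 ± 21.0 FPKM with 0.5 µM and 319 ± 71.0 with 300 µM copper at pH 3. The 95% interval of that difference was -0.26 to 0.43, and the gene had an interaction of 2.64 (SE 0.20, limma adjusted p = 2e-06). Its level at pH 3 thus lay between both levels at pH 4.8. Cs4g03300 was at 4.79 ± 0.800 and 5.06 ± 0.541 FPKM at pH 3, with an interaction of 2.25 (SE 0.18, limma adjusted p = 3.6e-06).

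Among the falls, Cs7g03770 was at 308 ± 41.7 and 328 ± 37.6 FPKM at pH 3 (95% interval of the difference -0.21 to 0.39), with an interaction of -4.15 (SE 0.20, limma adjusted p = 1.2e-07). It was thus low in the pH 4.8 copper libraries and high in all 9 others. The gene orange1.1t00347 on unplaced sequence (5080827 to 5081396) had 11.23, 6.93 and 17.87 FPKM in the pH 4.8 controls and 0.20, 0.09 and 0.49 under copper, while at pH 3 it was at 9.12 ± 2.28 and 9.22 ± 2.02 FPKM. Copper changed it by -3.29 at pH 4.8 (limma adjusted p = 1.3e-05), and its interaction was -3.32 (SE 0.39, limma adjusted p = 7e-05).

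Some genes responded strongly at both pH values. Cs4g17240 (chromosome 4, 16966105 to 16966344) rose from 0.90, 0.24 and 2.56 FPKM to 43.82, 47.09 and 16.66 at pH 4.8 (4.05, SE 0.43, limma adjusted p = 5.9e-05) and from 0.517 ± 0.257 to 57.5 ± 24.0 FPKM at pH 3 (5.21, SE 0.26, limma adjusted p = 1.7e-05). Cs5g06570 rose by 3.17 (SE 0.22, limma adjusted p = 4.1e-05) at pH 3, from 5.47 ± 1.32 to 57.9 ± 14.7 FPKM, to a level near that at pH 4.8. Its starting level at pH 3 was higher, and the same was so of Cs8g15220, at 7.17 ± 1.76 FPKM with 0.5 µM and 60.6 ± 11.7 with 300 µM copper. Cs9g07680 (chromosome 9, 4784083 to 4785449) fell from 44.91, 52.64 and 42.80 FPKM to 1.19, 2.48 and 2.22 at pH 4.8 (-4.03, SE 0.17, limma adjusted p = 2.9e-07) and by -2.43 (SE 0.33, limma adjusted p = 0.0011) at pH 3.

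The other fall named for both pH values rests on few libraries at pH 4.8. An assembled locus of 300 bp on unplaced sequence (81453201 to 81453500) had 9.76, 17.50 and 0.59 FPKM in the pH 4.8 controls and 0.00, 0.33 and 0.38 under copper (-2.48, SE 0.73, limma adjusted p = 0.017). Control replicate 3 was thus almost as low as the copper libraries. The call at pH 4.8 was lost without control replicate 1 (limma adjusted p = 0.06), without control replicate 2 (0.054) and without copper replicate 1 (0.052). The locus also fell at pH 3, from 9.32, 24.17 and 17.46 FPKM to 0.00, 0.15 and 0.78. That difference was -3.73 (SE 0.33, limma adjusted p = 0.00013).

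Opposite responses were largest among genes that fell at pH 4.8. Cs4g02690 (chromosome 4, 1254521 to 1255539) had 52.06, 52.30 and 76.93 FPKM in the pH 4.8 controls and 1.97, 2.01 and 2.55 under copper (-4.25, SE 0.15, limma adjusted p = 1.7e-07), while at pH 3 it rose from 14.6 ± 7.21 to 224 ± 44.1 FPKM. Cs6g07690 (chromosome 6, 9543966 to 9545372) had 13.26, 21.99 and 16.63 FPKM against 1.67, 1.85 and 2.76 (-2.55, SE 0.19, limma adjusted p = 6.2e-06), and rose at pH 3 from 7.48 ± 0.385 to 62.6 ± 24.0 FPKM. In both, the pH 4.8 copper libraries were the lowest of all 12 and the pH 3 copper libraries the highest. The interactions were -8.21 (SE 0.42, limma adjusted p = 1.8e-07) and -5.38 (SE 0.35, limma adjusted p = 8.2e-07).

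Of the opposite kind, rises at pH 4.8 with falls at pH 3, the examples were small. Cs1g25610 (chromosome 1, 27890252 to 27895878) went from 11.9 ± 2.48 to 25.6 ± 4.77 FPKM at pH 4.8 (1.04, SE 0.16, limma adjusted p = 0.00052) and from 41.1 ± 2.03 to 22.3 ± 2.53 FPKM at pH 3 (-0.86, SE 0.11, limma adjusted p = 0.00065), so that both copper levels were close to each other and the controls were far apart. Cs7g03250 (chromosome 7, 1390199 to 1390654) had 2.52, 1.15 and 1.27 FPKM against 5.03, 4.35 and 3.10 at pH 4.8 (0.98, SE 0.21, limma adjusted p = 0.0038) and fell by -1.15 (SE 0.17, limma adjusted p = 0.0017) at pH 3.

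**Figure D5:**
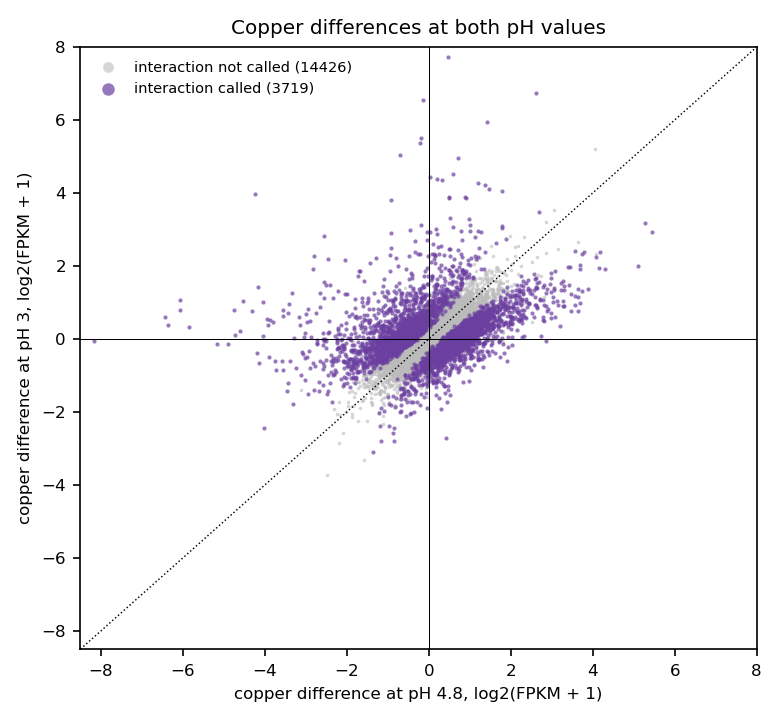
Copper difference of each gene tested at both pH values, at pH 4.8 on the x axis and at pH 3 on the y axis (log2(FPKM + 1)), with 1 point per gene, coloured by whether the interaction was called; the dotted line marks equal differences. Points far to the right lie above 0 on the y axis, while many of those far to the left lie near 0, as with the medians of 1.18 and -0.25 for genes changed by at least 4-fold at pH 4.8.

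The genes named for their spread varied more among pools than between treatments. The widest spread in the controls, among genes with a group mean of at least 5 FPKM, was at Cs1g04550 (chromosome 1, 4036221 to 4036833), with 20.44, 0.46 and 0.43 FPKM and an SD of 2.25 log2 units, against 0.64, 0.08 and 0.64 FPKM under copper. The widest under copper was at orange1.1t04514 on unplaced sequence (71085118 to 71086525), with 4.59, 58.81 and 3.85 FPKM against 17.06, 7.34 and 11.48 in the controls. A single pool stood apart in each case. At pH 3 replicate 1 was the highest of its group for both genes, at 0.5 and at 300 µM copper. In that order its values were 28.74 and 9.56 FPKM of Cs1g04550 and 16.05 and 31.77 FPKM of orange1.1t04514. Neither gene was called (-1.32 with an interval of -3.29 to 0.66, and -0.07 with -1.90 to 1.76), and without copper replicate 2 the latter was called lower (-1.25, SE 0.28, limma adjusted p = 0.0062).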

How the data were processed

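For each library the authors deposited FPKM rounded to 2 decimals beside position and strand, per the file headers. The submitters' processing notes list DESeq2 1.22.1, StringTie 1.3.4d, featureCounts 1.6.2, HISAT2 2.1.0 and fastp 0.19.3 without saying what each did. Neither the build nor the strand setting nor the treatment of multi-mapping reads is given in the sources used here, and near-identical copies and overlapping genes are therefore uncertain.

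Groups follow the treatment labels. No count test was run, because FPKM are not counts. The depth of each library was the one that best put low values on whole fragments, with genomic span taken as the gene length. Only values under 6 FPKM of genes spanning under 900 bp entered this search. At the depth found, 76.7% to 78.2% of these values in the 6 libraries came within 0.15 of a whole fragment. The depth was chosen on the same values, so this share is no test, and longer genes were not checked. Genes that averaged 1 FPKM or more in a group were fitted, as log2(FPKM + 1), in limma 3.58.1 (R 4.3.3) with a variance trend, checked on simulated data. Copper at pH 3 had a fit of its own, and the interaction used 12 libraries. Adjusted p-values run over all tested genes. Steady genes have a 95% interval within 1.5-fold.

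The comparison, the lists and the rules were chosen with earlier results of these data known. For each question, up to 2 rises and 2 falls were named, by size of the change in FPKM or log2 units among called genes without overlap, by loss or appearance, by run, by behaviour at pH 3, by spread and by abundance. The alternatives were another pseudocount, no filter or a stricter one, quantile or median scaling, no variance trend, all 12 libraries in the fit, a replicate block, and leaving out each library.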

Additional observations from a re-analysis of the deposited data

Results flagged for a closer look

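The copper response differed between pH 4.8 and pH 3 in 3991 of 19204 genes by the interaction test in limma. Among the genes named for it, the interaction (pH 4.8 less pH 3, log2 units) was 2.64 for Cs5g04630, 2.25 for Cs4g03300, 2.14 for Cs7g03250 and 1.9 for Cs1g25610. It was negative for the falls, at -4.15 for Cs7g03770, -3.32 for orange1.1t00347, -8.21 for Cs4g02690 and -5.38 for Cs6g07690. These genes were chosen by this behaviour, so the values describe them and are no separate evidence.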

How the results depend on the processing

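Each library left out in turn gave 4528 to 4917 rises, 4614 to 4973 falls, 1160 to 1274 and 906 to 984 changes of at least 2-fold, 7149 to 8072 steady genes and 3198 to 4398 interactions. For copper at pH 3 this range was 3607 to 7376, against 5644 with all 6 libraries, with 3744 and 3607 when control replicate 1 or 2 at pH 3 was left out. The other alternatives gave 3942 to 5352 rises, 4345 to 5535 falls, 974 to 1805 and 704 to 1337 changes of at least 2-fold (the highest with a pseudocount of 0.1), 6237 to 9309 steady genes and 3372 to 4106 interactions. They shared 77.7% to 99.1% of the 10500 calls. The 77.7% came with the filter at 5 FPKM, which left fewer genes to test, and the others shared 92.4% or more. With the replicate number as a block (replicate block), 5352 genes rose and 5535 fell, 1227 and 921 of them by at least 2-fold. Same-numbered libraries deviated together with r = 0.149, 0.077 and 0.165, each above its values for other numbers. Deviations from a group mean sum to 0 for each gene, so these values are not independent of each other. They are a hint from the data only, since the labels do not say that a number is shared. Of 432 values of the 31 named genes, 418 kept their direction and side of the threshold. The direction of orange1.1t04514, which was not called, turned without control replicate 1 (0.2), copper replicate 1 (0.46) or copper replicate 3 (0.57), and it was called without copper replicate 2 (-1.25). Cs5g32800 was called under quantile normalization (-0.29, limma adjusted p = 0.048). The causes were not tested. Depth limits low values: for a gene of 1 kb, those under 0.132 to 0.169 FPKM are not told from 0. This limit is higher for shorter genes and lower for longer ones.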
